A study of Mus musculus with 48 samples.

Results

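Oligodendrocytes are the glial cells that wrap axons of the brain and spinal cord in myelin. Their identity rests on a small set of transcription factors, among them Sox10, Olig1 and Olig2, and their membrane is built from a few abundant proteins. DNA methylation, the addition of a methyl group to cytosine in a CpG pair, is usually low at CpG-rich promoters and is common within gene bodies. The genes described here are 9 oligodendrocyte genes: the transcription factors Sox10, Olig1 and Olig2, and the myelin genes Mbp, Mobp, Mog, Mag, Cnp and Opalin. Their members were the rows of an amygdala methylation table (called loci) that overlapped the gene body or the 5000 bp on either side of it. This gave 58 of 187695 loci, at 8 of the 9 genes, because no locus lay within the window of Olig2.

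The study compared male C57BL/6 mice (substrain C57BL/6N by the methods) of 4 months of age that differed in Tph2, which encodes the rate-limiting enzyme of serotonin synthesis in the brain, and in early rearing. The groups were Tph2+/+ (wildtype), Tph2+/- (heterozygous) and Tph2-/- (constitutive null) mice, each as controls (C) or after maternal separation (MS). Controls had standard facility rearing, and MS mice were kept away from the mother 3 h daily on postnatal days 2 to 15. By the methods, all males were housed singly after weaning and went through behavioural tests before tissue was taken. All were born to Tph2+/- parents, and the null mutation was present in every cell throughout life. By the methods, whole litters were assigned to MS or C. The labels used here do not name the litter of a mouse. Each of the 6 groups held 8 mice with 1 library each, made by pulling down methylated DNA with the methyl-binding domain (MBD) of a protein, so more reads at a locus stand for more captured methylated DNA. Total counts per library ranged from 7724481 to 14133801. The study left out 2 Tph2-/- MS samples of low counts, and here those with the smallest total counts there (replicates 3 and 7) were dropped, which left 46 libraries. In tissue homogenate, a change in the share of oligodendrocytes and a change in methylation within them cannot be told apart, and the table holds no expression by which the tissue label could be checked. The libraries carry the numbers S1 to S48, of which S1 to S17 and S42 to S48 were C and S18 to S41 were MS, so MS and the order of samples cannot be told apart either.

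Sequences of 3 promoters are shown because they mark the contrast between a start that lay inside a locus and starts that did not. Mag encodes a glycoprotein on the membrane next to the axon, Cnp an enzyme that keeps cytoplasmic channels in myelin open, and Olig2 a basic helix-loop-helix factor required to form oligodendrocytes. The RefSeq windows of 250 bases before to 50 bases after the start (GRCm38.p6) lie at chr7:30914873-30915172 on the minus strand, chr11:100574689-100574988 on the plus strand and chr16:91225300-91225599 on the plus strand, and capitals mark each CpG.
Mag promoter: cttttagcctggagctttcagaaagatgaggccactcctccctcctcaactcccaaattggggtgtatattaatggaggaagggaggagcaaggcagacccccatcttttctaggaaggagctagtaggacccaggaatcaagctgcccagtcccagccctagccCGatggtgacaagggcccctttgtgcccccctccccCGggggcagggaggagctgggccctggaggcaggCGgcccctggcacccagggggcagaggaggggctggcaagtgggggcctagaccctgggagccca
Cnp promoter: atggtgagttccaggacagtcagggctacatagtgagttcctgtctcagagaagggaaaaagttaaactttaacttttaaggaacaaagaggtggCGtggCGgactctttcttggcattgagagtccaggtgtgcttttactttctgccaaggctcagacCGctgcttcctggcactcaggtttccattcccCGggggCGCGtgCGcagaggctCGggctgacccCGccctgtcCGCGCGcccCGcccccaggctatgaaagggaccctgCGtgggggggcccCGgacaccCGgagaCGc
Olig2 promoter: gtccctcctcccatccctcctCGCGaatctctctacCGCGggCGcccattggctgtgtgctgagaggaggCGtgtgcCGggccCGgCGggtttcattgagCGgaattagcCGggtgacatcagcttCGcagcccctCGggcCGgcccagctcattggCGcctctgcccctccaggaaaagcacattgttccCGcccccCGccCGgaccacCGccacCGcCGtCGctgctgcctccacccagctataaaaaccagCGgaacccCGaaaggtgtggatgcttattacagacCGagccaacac
The window of Mag held 3 CpG and lay inside a locus over all 300 of its bases. It is the most upstream of 3 windows listed for Mag, and the other two, with 3 and 6 CpG, also lay wholly inside that locus. The windows of Cnp and Olig2 held 17 and 25 CpG and shared 0 bases with a locus. Of 32851 promoter windows, 76.7% held at least as many CpG as this one of Mag, 31.4% as many as that of Cnp and 18.4% as many as that of Olig2. An entry was found for 6 of the 9 genes (Mag, Cnp, Olig2, Mobp, Mog and Opalin), and among these the windows of Mobp, Mog and Opalin held 5, 3 and 4 CpG and also lay outside every locus.

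The inner part of 3 loci is shown next, as these are returned to below: Cnp locus 1 and Opalin locus 3 were among the loci past the study's limits after MS, and Mag locus 4 had the highest level per kb of all 58. Loci are numbered by genome position within a gene. The central 300 bases are given on the plus strand of GRCm38, at chr11:100576327-100576626, chr19:41068777-41069076 and chr7:30911399-30911698, again with CpG in capitals.
Cnp locus 1: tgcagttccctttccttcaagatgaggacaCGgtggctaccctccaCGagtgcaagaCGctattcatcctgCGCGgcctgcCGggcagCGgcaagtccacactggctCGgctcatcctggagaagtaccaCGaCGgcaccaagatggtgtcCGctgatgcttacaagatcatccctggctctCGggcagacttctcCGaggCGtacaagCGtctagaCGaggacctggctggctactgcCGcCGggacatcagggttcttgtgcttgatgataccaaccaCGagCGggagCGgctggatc
Opalin locus 3: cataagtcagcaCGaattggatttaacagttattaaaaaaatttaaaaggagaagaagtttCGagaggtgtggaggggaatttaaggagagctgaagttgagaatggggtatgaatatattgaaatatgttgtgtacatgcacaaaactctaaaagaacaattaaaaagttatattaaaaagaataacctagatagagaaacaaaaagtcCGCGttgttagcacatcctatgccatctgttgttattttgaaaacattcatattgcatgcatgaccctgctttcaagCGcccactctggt
Mag locus 4: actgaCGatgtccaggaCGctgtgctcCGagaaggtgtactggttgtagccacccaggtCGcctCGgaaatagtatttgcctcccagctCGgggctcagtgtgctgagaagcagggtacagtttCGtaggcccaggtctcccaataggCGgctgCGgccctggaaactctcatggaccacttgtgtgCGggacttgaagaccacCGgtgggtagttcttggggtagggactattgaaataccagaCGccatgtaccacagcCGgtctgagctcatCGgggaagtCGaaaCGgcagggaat
These stretches held 21, 5 and 16 CpG. The stretch of Opalin locus 3 came from an intron and those of Cnp locus 1 and Mag locus 4 from loci that overlapped coding exons.

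The loci were spread very unevenly over the genes. Mbp (chromosome 18, 82475146 to 82585637) held 23 loci, Mobp 13, Opalin 7, Mag and Sox10 5 each, Mog and Cnp 2 each, and Olig1 a single locus. Loci covered 31.1% of the window of Mobp, 28.5% of that of Mag, 27.6% of Sox10, 25.1% of Opalin and 18.2% of Mbp, against 8.12% for Mog, 7.03% for Olig1 and 6.40% for Cnp. The share of a window's CpG that lay in loci followed a similar order, from 45.1% for Mobp and 37.1% for Mag to 13.7% for Cnp and 5.33% for Olig1. Among 21911 protein-coding genes the median window held 2 loci and 21.5% held none.

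**Figure D1:**
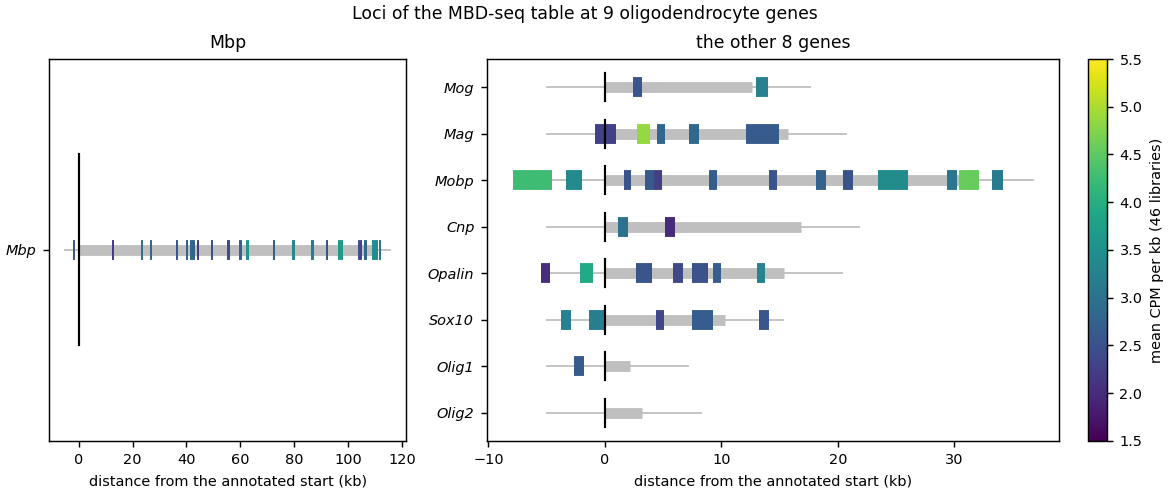
Loci (blocks) at the 9 genes by distance from the annotated start in kb, with the gene body as a thick grey bar, the added 5 kb as a thin line and the start as a black tick. Colour gives the mean level per kb (CPM per kb, 46 libraries), which ran from 1.98 at Cnp locus 2 to 4.87 at Mag locus 4, and Olig2 carries no block.

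Transcription factors. Sox10, a high-mobility-group factor that drives myelin genes directly, lies on chromosome 15 (79154908 to 79165240, minus strand). Its annotated start lay within Sox10 locus 4 (79165137 to 79166598), a stretch with 23.3 CpG per kb that also overlapped the gene Gm10863. Of its 3 distinct coding transcript starts, 1 lay in a locus. That locus had a level of 4.65 ± 1.29 CPM (SD, n = 46), and Sox10 locus 5, upstream of the start, 2.89 ± 0.779 CPM. CPM stands for counts scaled to a common library size with trimmed-mean (TMM) factors. Sox10 locus 1 lay in the body of the neighbour Polr2f. Olig1, a helix-loop-helix factor of oligodendrocyte maturation, had its single locus upstream, centred 2223 bp before the start (chromosome 16, 91267122 to 91267976), at 2.25 ± 0.644 CPM. Its own body and its CpG-rich start, with 76 CpG within 500 bp on either side, had no locus. Olig2 had no locus in a window of 13221 bp that held 496 CpG, or 37.5 per kb, the highest density of the 9 windows. The nearest loci lay 11288 bp to the left and 9928 bp to the right of its start, which left a gap of 21215 bp with 611 CpG. Of 2570 protein-coding genes with a window no wider than that of Olig2, 40.7% had no locus, and of 6532 with at least as many CpG within 500 bp of the start, 16.7% had none and 0.597% had a locus over the start. The table holds merged peaks, so a region with no locus has no count here and its level is not known.

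Myelin genes. Mbp encodes the myelin basic protein, which holds the inner faces of the membrane together. The annotated start belongs to the long transcripts that encode the golli proteins, and it lay 1608 bp from the centre of the nearest locus (Mbp locus 1). The starts of the shorter transcripts, which encode the myelin forms, gathered in Mbp locus 15 (82554231 to 82555259), 79599 bp downstream. This locus held 7 of 10 distinct starts and 11 of 14 coding transcripts, had 36.9 CpG per kb, the second highest density among the 58, and had a level of 3.47 ± 0.663 CPM (n = 46). The highest level per kb in Mbp was that of Mbp locus 18 (3.66 CPM per kb), which overlapped a coding exon, followed by the intronic Mbp locus 13 (3.59 CPM per kb) and by Mbp locus 22 over the end of the gene (3.45 CPM per kb). Mag, in contrast, had every one of its 6 coding transcript starts within Mag locus 5 (chromosome 7, 30913910 to 30915746), a wide locus with 13.1 CpG per kb and a level of 4.14 ± 1.15 CPM. Only 6.59% of protein-coding genes had a locus over the start and 10.5% over the end. Among the members, the annotated start was covered at Mag and Sox10 and the end at Mbp and Mobp.

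Mobp, which encodes a small basic protein of compact myelin, had its widest locus 6227 bp upstream of the start (Mobp locus 1, chromosome 9, 120141807 to 120145153). It carried the highest level of any member locus, 14.2 ± 1.75 CPM, and per kb it was second within the gene (4.26 CPM per kb) to Mobp locus 12 over the gene's end (4.57 CPM per kb). The locus nearest to the start, Mobp locus 3, lay 1931 bp into the gene with 1.53 ± 0.478 CPM. Mog, a surface protein of the outermost myelin layer, lies in the major histocompatibility region of chromosome 17. Its locus 1 (37009386 to 37010393) lay beyond the gene's end in the body of Zfp57 with 3.29 ± 0.870 CPM, and its locus 2 (37020176 to 37021007), over a coding exon, had 2.11 ± 0.566 CPM. Both Cnp loci overlapped coding exons (chromosome 11, 100576027 to 100576926 and 100580093 to 100580910), and Cnp locus 1 had 38.9 CpG per kb, the highest density of the 58. Opalin, a transmembrane glycoprotein of oligodendrocytes, had 5 loci in its body and 2 upstream, of which Opalin locus 6 (chromosome 19, 41078108 to 41079223) had the highest level per kb, 3.92 CPM per kb.

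Of the 58 loci, 18 (31%) overlapped a coding exon of any gene, against 18% of all loci. These include Mog locus 1 and Sox10 locus 1, which lie in neighbouring genes. Members were taken at genes and all loci were not, so the shares are not of like sets. The 58 loci were otherwise much like the rest of the table, with a median of 18.5 CpG per kb (18.2 over all loci), a median width of 861 bp (916) and a median of 29.5 counts per kb (30.1). The lowest count of a member locus in the 46 libraries was 0 (Mbp locus 19) and the highest 226 (Mobp locus 1).

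Gene sums, the counts of all loci of a gene added together, gave a steadier measure. Median sums over the 46 libraries ran from 24 counts for Olig1 and 46 for Cnp to 592 for Mobp and 709 for Mbp. Divided by the length of the loci, the levels ran in the order Mobp (3.41 ± 0.226 CPM per kb, SD, n = 46), Mag (2.94 ± 0.570), Mog (2.94 ± 0.633), Mbp (2.92 ± 0.173), Sox10 (2.83 ± 0.428), Opalin (2.77 ± 0.307), Olig1 (2.64 ± 0.753) and Cnp (2.52 ± 0.607). No neighbours in this order differed by more than the larger of their SDs. The sum of Mog includes Mog locus 1 in the body of Zfp57, and Mog locus 2 alone had 2.54 CPM per kb. Spread within groups fell with the number of counts, as a coefficient of variation of 6.04% for Mbp and 6.48% for Mobp against 23% for Cnp and 28.3% for Olig1. Mag was the exception, with 19.5% at a median of 221.5 counts, where Opalin had 10.03% at 200 counts.

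**Figure D2:**
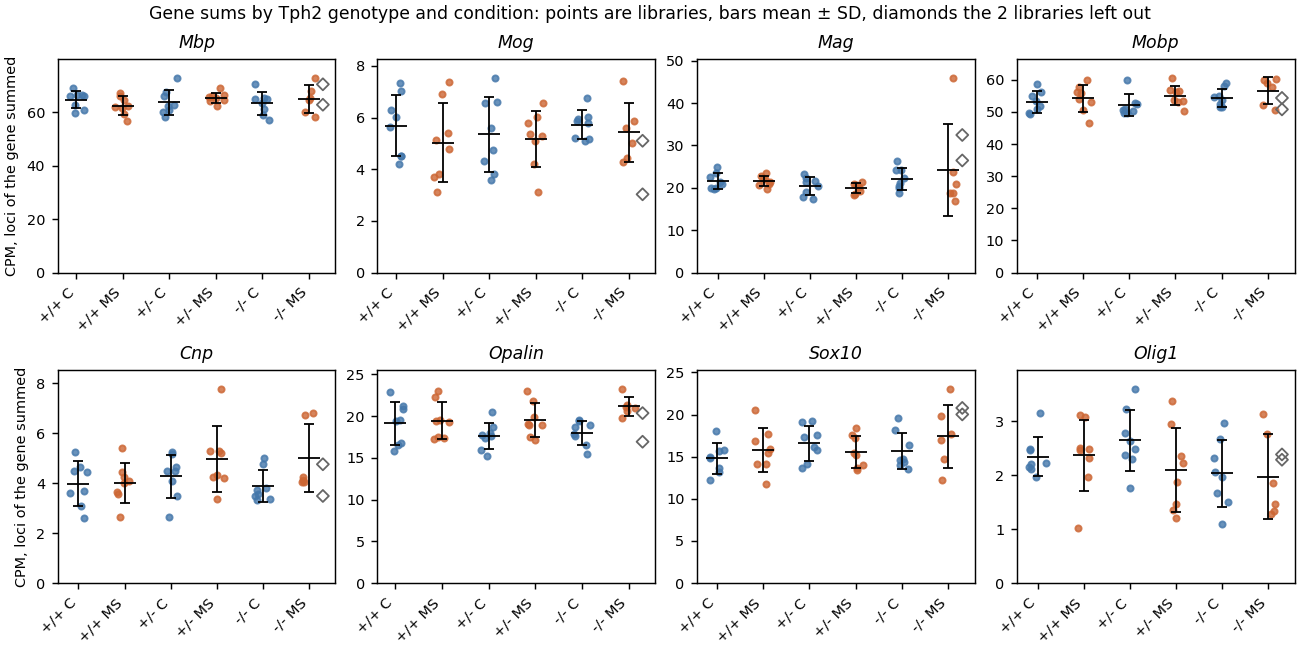
Gene sums in CPM for each library by group, with mean ± SD (6 libraries for Tph2-/- MS, 8 for each other group) and the 2 libraries left out as diamonds. C and MS of one genotype overlap for every gene except Opalin in Tph2-/- mice, where the 6 MS libraries (19.8 to 23.2 CPM) sit above the 8 C libraries (15.4 to 19.6 CPM). The left-out replicate 7 (16.9 CPM) lies within that C range. The share of all gene sums that separate in this way was not determined.

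Maternal separation over genotypes. The question of the comparison was whether MS left a difference in methylation, averaged over the genotypes. In Opalin, the lowest, median and highest C libraries of Tph2+/+ mice had 15.8, 19.5 and 22.8 CPM, and the MS libraries 17.3, 19.3 and 23. Tph2+/- libraries had 15.2, 17.7 and 20.4 CPM in C and 17.1, 18.99 and 23.05 in MS, and Tph2-/- libraries 15.4, 18.3 and 19.6 in C and 19.8, 21.03 and 23.2 in MS. Groups thus overlapped in Tph2+/+ and Tph2+/- mice and, among the 46 libraries, did not in Tph2-/- mice. The left-out Tph2-/- MS replicate 7 (16.9 CPM) lay within the C range. How many of all gene sums separate in this way was not determined. The sum of Opalin had a log2 fold change of 0.13 ± 0.05 (SE, derived from the F statistic) with adjusted p = 0.139 in edgeR's quasi-likelihood test, and it did not pass. For the other 7 genes the values lay between -0.13 (Olig1) and 0.19 (Cnp), and 1 of 8 sums (Opalin) had an unadjusted p under 0.05, where 17.9% of all genes did. The sum of Mbp was the most closely bounded, at 0.01 with a 95% interval of -0.05 to 0.06. In this comparison 0.0298% of 36934 gene sums passed an adjusted p under 0.05 in edgeR, while 399 of the 36934 did in DESeq2. Of the 8 members 0 did in either tool.

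At single loci, 0 of 58 passed an adjusted p under 0.05 in either tool. Of all loci 0.0128% did in edgeR, and 1226 of 187695 did in DESeq2. In edgeR 5 members had an unadjusted p under 0.05, 8.62% against 12.2% of all loci. The study counted loci at an unadjusted p under 0.01 with a log2 fold change beyond 0.2. At these limits 3 member loci (5.17%) were counted, all higher in MS, where 3.63% of all loci were. The median change of the 58 was 0.01, beside 0.00 for all loci, and 29 loci were higher and 29 lower.

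The 3 loci were Opalin locus 3 (log2 fold change 0.31 ± 0.11, adjusted p = 0.230), Opalin locus 7 (0.45 ± 0.16, adjusted p = 0.238) and Cnp locus 1 (0.33 ± 0.12, adjusted p = 0.255), by edgeR. Opalin locus 3 lies in an intron (chromosome 19, 41068253 to 41069600) and is the locus shown above with 5 CpG in its central 300 bases. Tph2+/+ mice had 1.61, 3.03 and 4.09 CPM (lowest, median and highest) under C, against 1.88, 3.76 and 5.48 under MS. In Tph2+/- mice they were 2.24, 3.30 and 4.03 CPM in C and 2.06, 3.23 and 4.85 in MS, and in Tph2-/- mice 1.64, 2.81 and 4.04 in C and 3.19, 4.25 and 4.798 in MS. The ranges overlapped in every genotype, with the MS median above the C median in Tph2+/+ and Tph2-/- mice. Opalin locus 7, centred 5099 bp upstream of the start (41081822 to 41082603), had mean levels of 1.47 ± 0.629 and 1.84 ± 0.620 CPM (C and MS, SD, n = 8) in Tph2+/+, 1.59 ± 0.636 and 1.87 ± 0.852 in Tph2+/-, and 1.082 ± 0.415 (n = 8) and 1.89 ± 0.602 (n = 6) in Tph2-/- mice. Its ranges also overlapped in all genotypes.

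**Figure D3:**
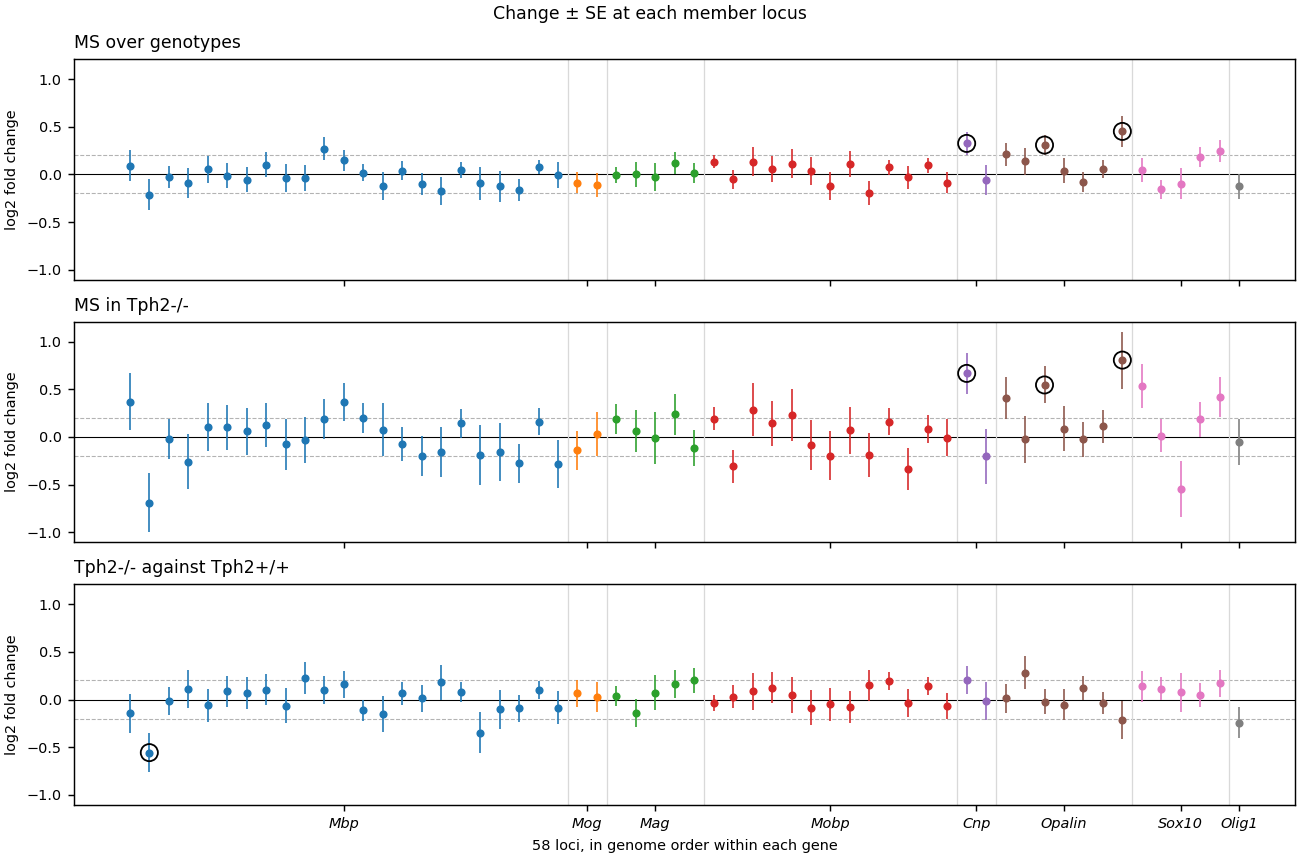
Log2 fold change ± SE of the 58 loci in genome order within each gene, for MS over genotypes, MS in Tph2-/- mice and Tph2-/- against Tph2+/+. Rings mark the loci past the study's limits (3, 3 and 1), dashed lines the limit of 0.2 on the log2 scale.

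The levels by run of sample numbers stood beside these differences as follows. Cnp locus 1 had 2.47 ± 0.657 CPM in S1 to S17 (C, n = 17), 2.32 ± 0.467 in S42 to S48 (C, n = 7), 2.59 ± 0.658 in S27 to S41 (MS, n = 14) and 3.76 ± 0.998 in S18 to S26 (MS, n = 8). The higher MS level was thus found in S18 to S26, and without these libraries the change was 0.10 ± 0.14. Opalin locus 3 had 2.97 ± 0.745, 3.20 ± 0.790, 3.61 ± 0.930 and 4.01 ± 0.696 CPM in the same order of runs, and its change without S18 to S26 was 0.27 ± 0.12. For Opalin locus 7 the levels were 1.39 ± 0.533, 1.36 ± 0.749, 1.83 ± 0.586 and 1.92 ± 0.853 CPM, and the change without S18 to S26 was 0.43 ± 0.18. The mean of both Opalin loci was higher in either run of MS libraries than in either run of C libraries.

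**Figure D4:**
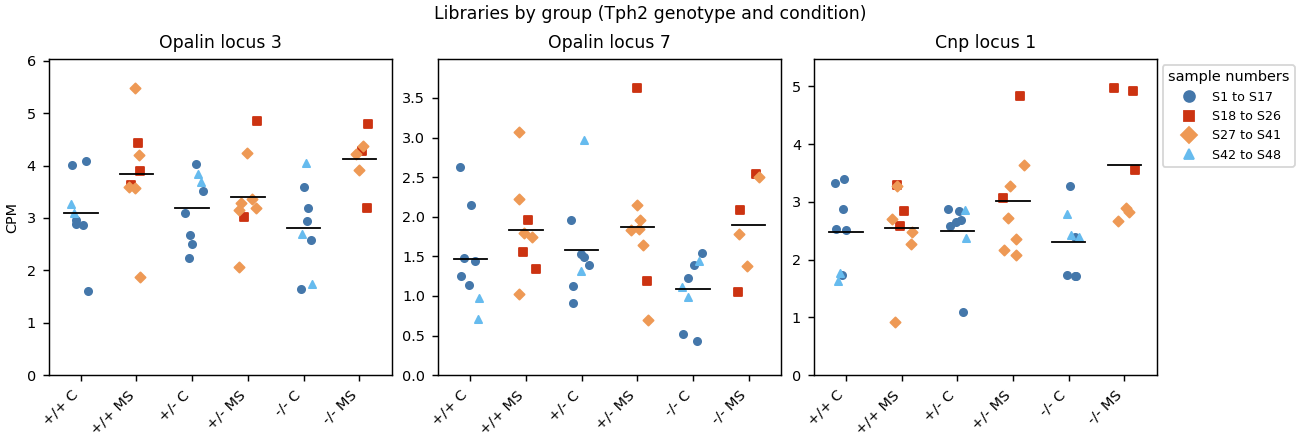
Levels in CPM of Opalin locus 3, Opalin locus 7 and Cnp locus 1 in each library by group, with symbols for the runs of sample numbers and a line at the group mean. At Cnp locus 1 the 3 squares of S18 to S26 in the Tph2-/- MS group, from 3.55 to 4.97 CPM, are the highest points of that group.

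Maternal separation within each genotype. In Tph2+/+ mice 0 of 58 loci were at the study's limits (1.31% of all loci) and 0 passed an adjusted p under 0.05 (0% of all loci in edgeR). An unadjusted p under 0.05 was found for 0 of them, where 6.52% of all loci had one. In Tph2+/- mice 0 loci were at the study's limits (0.779% of all) and 0 passed an adjusted p (0% of all). In this genotype 2 loci (3.45%) had an unadjusted p under 0.05, where 4.36% of all loci did. They were Mbp locus 8 (0.55 ± 0.23) and Sox10 locus 2 (-0.41 ± 0.16). Of the gene sums, 0 of 8 had an unadjusted p under 0.05 in either genotype (7.21% and 4.09% of all sums). The adjusted limit was passed by 0 (0% of 36934 sums in each). DESeq2 likewise gave 0 member loci and 0 member sums at an adjusted p under 0.05 in both, where 0 of all loci and 0 of all sums passed.

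In Tph2-/- mice 0 of 58 loci passed an adjusted p under 0.05 in either tool, as did 0 of all loci. At the study's limits there were 3 loci (5.17%) in edgeR, where 1.48% of all loci were. They were the same 3 loci named above: Opalin locus 7 (log2 fold change 0.81 ± 0.30), Cnp locus 1 (0.67 ± 0.22) and Opalin locus 3 (0.55 ± 0.19), which enter the average over genotypes and are not independent of it. At Cnp locus 1 the C libraries of this genotype had 1.71, 2.39 and 3.27 CPM (lowest, median and highest) and the MS libraries 2.67, 3.22 and 4.97, with an overlap between 2.67 and 3.27 CPM. A further 3 loci had an unadjusted p under 0.05, of which Sox10 locus 1 and Sox10 locus 5 were higher in MS (0.54 ± 0.23 and 0.42 ± 0.21) and Mbp locus 2 lower (-0.69 ± 0.31). With them 6 of 58 loci (10.3%) were under 0.05, where 7.11% of all loci were. The sums of Opalin (0.23 ± 0.08, adjusted p = 0.414 in edgeR) and Cnp (0.37 ± 0.17, adjusted p = 0.449) did not pass the adjusted limit. In edgeR and in DESeq2 0 of the 36934 sums passed it. The change of Cnp was 0.09 without S18 to S26. At Opalin the fitted libraries of the 2 conditions did not overlap. The share of all sums that separate in this way was not determined, and 10.7% of all sums had an unadjusted p under 0.05 here. The change of Opalin in Tph2-/- mice was not shown to differ from that in Tph2+/+ mice (0.02 ± 0.08), as the difference between them was 0.21 ± 0.11 (adjusted p = 0.9998 in edgeR), with a 95% interval of -0.01 to 0.44. The 2 libraries left out, scaled with all 48, had 20.3 CPM (replicate 3) and 16.9 CPM (replicate 7), of which the latter lies within the C range.

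Among the 6 fitted libraries, Mag in Tph2-/- MS mice rested on 1 library. Its sums there were 16.9, 19.9 and 45.8 CPM (lowest, median and highest, n = 6), and the next value below the highest was 23.7, against 18.8, 21.7 and 26.4 CPM in Tph2-/- C. The highest value belonged to replicate 2 (S19), whose Mag locus 4 stood at 16 CPM where the next library of the group had 7.21. The log2 fold change of Mag for MS in Tph2-/- was 0.12 ± 0.12 with all 6 libraries and -0.16 without replicate 2. The libraries left out of the fits also had high Mag sums, 32.5 CPM (replicate 3) and 26.5 CPM (replicate 7). On that scale of all 48 libraries the highest control had 26 CPM.

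Tph2 genotype. For Tph2-/- against Tph2+/+, averaged over C and MS, 1 locus of 58 (1.72%) was at the study's limits, where 0.748% of all loci were, and 0 passed an adjusted p under 0.05 (0.0139% of all loci). Mbp locus 2, in an intron 12943 bp from the annotated start (82487726 to 82488453), was lower in Tph2-/- mice by this count, with a log2 fold change of -0.56 ± 0.20 (adjusted p = 0.9999 in edgeR). The lowest, median and highest Tph2+/+ libraries had 1.24, 1.56 and 3.48 CPM under C and 0.616, 1.71 and 2.95 under MS. For Tph2-/- mice these were 0.866, 1.57 and 2.07 CPM under C and 0.463, 0.868 and 1.46 under MS. The lowest median was that of Tph2-/- MS, and all groups overlapped. Within Tph2-/- MS the S18 to S26 libraries had 0.576, 0.463 and 0.694 CPM and the S27 to S41 libraries 1.44, 1.04 and 1.46. Without S18 to S26 the change was -0.44 ± 0.22 and with all 48 libraries -0.41 ± 0.20, and neither was at the study's limits. For Tph2+/- against Tph2+/+ 0 loci were at the study's limits (0.546% of all) and 0 passed the adjusted limit (0.00213% of all). An unadjusted p under 0.05 was found for 2 loci (3.45%), about the share of all loci (3.47%). They were Mbp locus 17 (0.38 ± 0.17) and Mag locus 2 (-0.34 ± 0.15). No member sum had an unadjusted p under 0.05 in either comparison, where 4.48% and 3.01% of all sums did. The adjusted limit was passed by 0 members, against 0.0352% and 0.0217% of all sums in edgeR. DESeq2 also gave 0 member loci and 0 member sums, where 31 and 6 of all loci and 14 and 8 of all sums passed. The changes of the sums ran from -0.24 (Olig1) to 0.14 (Cnp) for Tph2-/- and from -0.10 (Mag) to 0.21 (Cnp) for Tph2+/-.

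Interaction of genotype and MS. GE1 stands for the change with MS in Tph2+/- less the change in Tph2+/+ mice, and GE2 for the same with Tph2-/- mice. In GE1, 2 loci (3.45%) were at the study's limits, where 0.626% of all loci were, and 0 passed an adjusted p under 0.05 (0% of all loci in edgeR). They were the neighbouring intronic loci Mbp locus 8 (82517340 to 82518207, 0.93 ± 0.32) and Mbp locus 9 (82518970 to 82519832, -0.93 ± 0.35), with opposite signs. At Mbp locus 8 the mean fell from 2.68 ± 0.688 to 2.04 ± 1.19 CPM from C to MS in Tph2+/+ mice and was 1.90 ± 0.644 and 2.83 ± 0.807 in Tph2+/- mice (SD, n = 8 each). At Mbp locus 9 it was 1.65 ± 0.580 and 2.25 ± 0.497 CPM in Tph2+/+ and 2.16 ± 0.776 and 1.54 ± 0.701 in Tph2+/- mice. Together with their neighbours they left the sum of Mbp at 0.09 ± 0.07. For GE2, DESeq2 counted 1 of 58 loci at the study's limits, and 1318 of all 187695. In edgeR 0 loci were at these limits (0.558% of all loci) and 0 passed an adjusted p (0% of all). An unadjusted p under 0.05 was found for 2 loci (3.45%), about the share of all loci (3.36%). They were Sox10 locus 1 (0.83 ± 0.32) and Cnp locus 1 (0.62 ± 0.30). Of the sums 0 passed the adjusted limit in GE1 or GE2 in either tool (0% of all sums in each). In edgeR 0 had an unadjusted p under 0.05 (3.09% and 3.28% of all sums). The intervals show how wide these contrasts were: for Mbp the GE2 value of 0.09 had a 95% interval of -0.05 to 0.22, and for Olig1 that of -0.07 ran from -0.70 to 0.57.

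Other genes of the oligodendrocyte lineage were read from lists that shared no gene with the members. Of 17 other myelin sheath and membrane genes 12 had loci. Of 9 lipid and metabolic enzymes of myelin 7 had loci, and of 8 other transcription factors and 8 progenitor genes all did. In the 8 comparisons 0 sums of these lists passed an adjusted p under 0.05 in either direction in edgeR, where 0% to 0.0352% of all sums did. For MS over genotypes the counts at an unadjusted p under 0.05 were 0 of 12 membrane genes, 2 of 7 enzymes, 1 of 8 transcription factors and 2 of 8 progenitor genes, all higher in MS, where 17.9% of all gene sums were in either direction. Their median changes were 0.03, 0.07, 0.06 and 0.07, beside 0.02 for all sums and 0.04 for the 6 myelin genes above. The smallest p of each list belonged to Hapln2, a link protein at nodes of Ranvier (-0.36 ± 0.15 for MS in Tph2+/+, adjusted p = 0.663), Enpp6, a choline phosphodiesterase of new oligodendrocytes (0.07 ± 0.03 for MS over genotypes, adjusted p = 0.185), Nkx6-2, a homeodomain factor (0.12 ± 0.05, adjusted p = 0.183) and Cspg4, the NG2 proteoglycan of progenitors (0.15 ± 0.05, adjusted p = 0.132), all by edgeR.

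Marker genes of the other cell types of the tissue gave 0 sums at an adjusted p under 0.05 in all 8 comparisons, for 10 of 12 neuronal, 9 of 9 astrocyte, 10 of 10 microglial and 5 of 6 endothelial genes with loci. Of all sums 0% to 0.0352% passed that limit in edgeR, depending on the comparison. For MS over genotypes their median changes were 0.02 (neurons), 0.03 (astrocytes), 0.04 (microglia) and 0.02 (endothelium). At an unadjusted p under 0.05, 2 of 10 neuronal, 1 of 9 astrocyte, 3 of 10 microglial and 1 of 5 endothelial genes were higher in MS and 1 microglial gene lower. Of all gene sums 17.9% were under 0.05 in this comparison, in either direction. The smallest p were those of Rbfox3 in GE2 (0.17 ± 0.07), Gja1 for MS in Tph2+/- (-0.25 ± 0.09), Tmem119 for MS in Tph2-/- (0.26 ± 0.08) and Pecam1 in GE1 (-0.21 ± 0.07).

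Variation between mice of 1 group was then compared between genes, as deviations of log2 CPM from the group mean over the 46 libraries. Of 28 pairs of genes 23 had a positive Pearson r, with a median of 0.14 and a range of -0.23 to 0.42. By permutation within groups (100000 resamples, 2-sided) 2 pairs had an unadjusted p under 0.05 and 0 passed the Benjamini-Hochberg adjustment over 28 pairs, by Pearson or by Spearman. The highest was Mag with Cnp (r = 0.42, permutation p = 0.00379, adjusted p = 0.106; rho = 0.37, permutation p = 0.0194, adjusted p = 0.346), with r = 0.34 without the 2 libraries farthest from the median of Mag. Within the runs of sample numbers r was 0.24 (S1 to S17), 0.42 (S18 to S26), 0.38 (S27 to S41) and 0.39 (S42 to S48).

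A property of each library that moved with some genes was its CpG slope, the change of log2 counts per SD of CpG density over all well-counted loci, which is high where a library holds relatively more of the CpG-dense loci. It was -0.10 to 0.06 in S1 to S17 and -0.05 to 0.24 in the S18 to S26 libraries of the fits. Deviations of 3 of 8 gene sums were correlated with it by Pearson's r: Cnp (r = 0.54, permutation p = 0.000560, adjusted p = 0.00448; rho = 0.46, permutation p = 0.00390, adjusted p = 0.0312), Mag (r = 0.59, permutation p = 0.00197, adjusted p = 0.00773; rho = 0.33, permutation p = 0.0350, adjusted p = 0.0934) and Sox10 (r = 0.51, permutation p = 0.00290, adjusted p = 0.00773; rho = 0.40, permutation p = 0.0140, adjusted p = 0.0559). By Spearman's rho only Cnp passed an adjusted p under 0.05. The share of all gene sums correlated with the slope was not determined, so the relation cannot be called particular to these genes. Without the 2 libraries of most extreme slope r fell to 0.40, 0.40 and 0.41. Within S18 to S26 r was 0.85 for Cnp, 0.71 for Mag and 0.79 for Sox10, within S1 to S17 it was -0.07, 0.38 and -0.07, within S27 to S41 0.44, 0.63 and 0.35 and within S42 to S48 0.37, -0.39 and 0.24, so the relation did not hold in every run. The other 5 genes had r between -0.20 and 0.16. CpG density of the loci did not sort the genes in the same way, as it was 32.6 per kb for Cnp, 20.99 for Sox10 and 17.07 for Mag, against 17.02 for Opalin and 21.6 for Mbp. With the slope as a term in the fit, the change of Cnp locus 1 for MS over genotypes was 0.17 ± 0.12 that of Opalin locus 7 was 0.32 ± 0.17 and that of Opalin locus 3 was 0.34 ± 0.11.

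**Figure D5:**
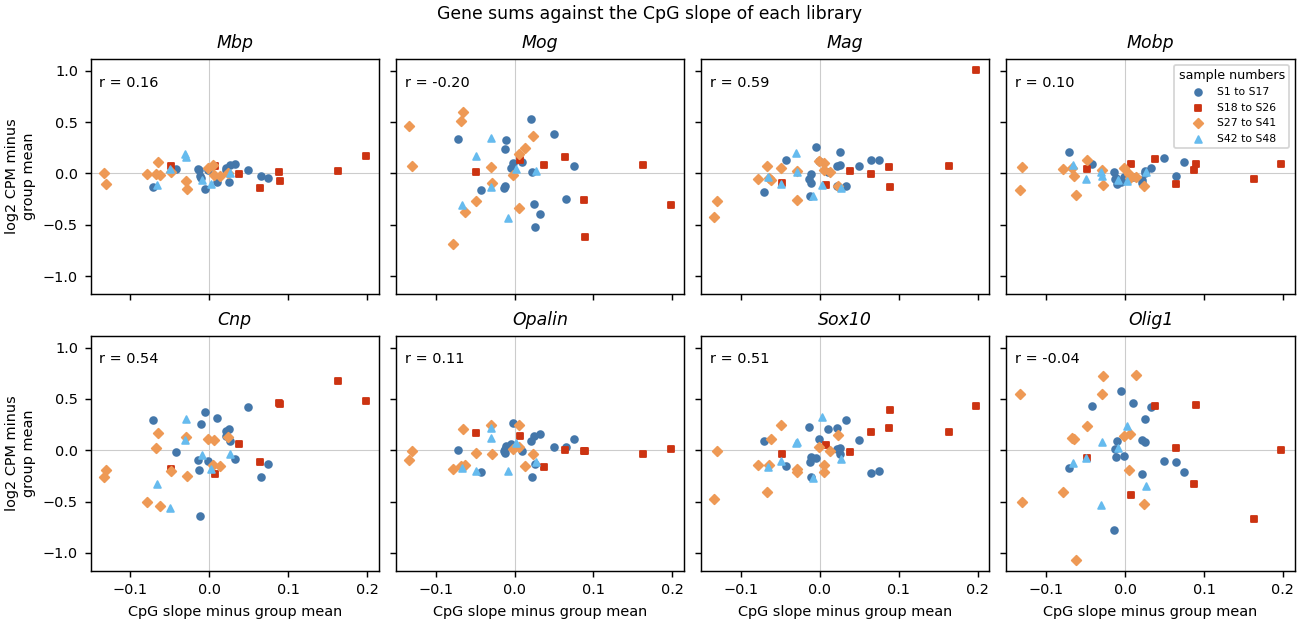
Deviation of each gene sum from its group mean (log2 CPM) against the deviation of the library's CpG slope, 46 libraries, with symbols for runs of sample numbers and Pearson's r in each panel. Points of Cnp, Mag and Sox10 rise with the slope (r = 0.54, 0.59 and 0.51), with squares of S18 to S26 at the right, and 1 Mag library (S19) stands far above the rest.

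For each member the protein-coding gene with the most similar deviations, among the 17202 or more that shared no locus with it, was found by Pearson's r over the 46 libraries. It was Tbc1d16 for Mag (r = 0.81), 2610044O15Rik8 for Sox10 (0.77), Cyp1a2 for Cnp (0.74), Sostdc1 for Mog (0.62), Flcn for Mbp (0.60), Rnmt for Mobp (0.59), Mthfd1 for Opalin (0.57) and Chodl for Olig1 (0.56). The 3 highest belonged to the members correlated with the CpG slope. Their counterparts had r = 0.68, 0.52 and 0.61 with it. As each was picked for its likeness to the member in the same libraries, this is not separate evidence. No member was the most similar gene of another.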

How the data were processed

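Amygdala DNA of 48 mice was enriched for methylated fragments and sequenced. The authors deposited raw counts of reads at merged peaks, after alignment to GRCm38 with Bowtie2 2.1.0 and counting with DiffBind 2.0.9. The counts carry no molecular identifiers. MBD capture depends on CpG density, so levels of different loci are not methylation percentages.

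Groups came from the sample labels. Counts were fitted over all 187695 loci in 46 libraries with edgeR 4.0.16 (R 4.3.3; TMM, robust quasi-likelihood test, 1 term per group), with p-values adjusted by Benjamini-Hochberg over all loci. Counts were also summed per gene over GENCODE genes with a locus (36934) and fitted with the same library sizes. SEs were derived from the F statistic. DESeq2 1.42.0 served as an alternative. The fits were tested on simulated data. Correlations used log2(CPM + 0.1). The planned correlations shrank to 28 pairs because Olig2 had no locus. Which 2 libraries the study left out is not named in the sources used here. Each library came from 1 mouse. Mice were treated as independent, because litters, the unit assigned to MS or C, are not named in the labels used here. SEs and p-values for MS may therefore be too small.

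The members and gene lists were chosen with earlier results of these data known. The text names, for each gene, the locus with the highest CPM per kb, the locus nearest to the start and loci at the study's limits; for each list, the gene with the smallest p; and for each member, the gene most alike. Loci with an unadjusted p under 0.05, Mobp locus 1, Mbp loci 13, 15 and 22, and Sox10 locus 1 were named after their values were seen, and levels by run of sample numbers were added after seeing the data.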

Additional observations from a re-analysis of the deposited data

Results flagged for a closer look

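Among the sets of libraries examined (gene sums and named loci by group), 12 held a library far from the others by Dixon's criterion (7.69% of the sets), where chance gives about 1 in 20, so the number is not far from chance, and Olig1 enters as both a sum and a locus. For the gene sums these were Mag in Tph2-/- MS replicate 2 (45.8 CPM, next 23.7), Mobp in Tph2+/- C replicate 4 (60.0 CPM, next 52.6), Cnp in Tph2+/- MS replicate 1 (7.77 CPM, next 5.31) and Olig1 in Tph2+/+ C replicate 5 (3.14 CPM, next 2.47), the last being also its single locus. For loci, high values were those of Mag locus 4 in Tph2-/- MS replicate 2 (16 CPM, next 7.21), Mag locus 5 in Tph2+/+ C replicate 1 (6.10 CPM, next 4.13) and in Tph2-/- C replicate 8 (6.64 CPM, next 5.14), Mbp locus 9 in Tph2-/- C replicate 5 (3.26 CPM, next 1.94) and Sox10 locus 5 in Tph2-/- C replicate 2 (4.18 CPM, next 2.85). Low values were those of Cnp locus 1 in Tph2+/+ MS replicate 8 (0.924 CPM, next 2.27) and in Tph2+/- C replicate 2 (1.1 CPM, next 2.37). The libraries with the high Mag and Cnp sums had CpG slopes of 0.24 and 0.16, and the part of the slope in these values was not tested.

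The 2 Tph2-/- MS libraries outside the fits gave 16 gene sums, of which 4 lay above all 24 control libraries when all 48 were scaled together, a scaling that shifts the controls slightly from the values above. Mag had 32.5 CPM in replicate 3 and 26.5 in replicate 7, the latter barely above, where the highest control had 26. Sox10 had 20.8 and 20.0 CPM, where the highest control had 19.3. Their CpG slopes were 0.33 and 0.12. How many of all gene sums lay above every control in these libraries was not determined. The count therefore cannot be called particular to Mag and Sox10.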

How the results depend on the processing

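No member locus or gene sum passed an adjusted p under 0.05 in any of the 8 comparisons under the 12 alternatives for loci and 12 for sums, nor any sum in 46 refits that each left out 1 library. No named value with an unadjusted p under 0.05 changed direction under these alternatives. Of all 64 changes of gene sums 21 took both signs when single libraries were left out, among them Mag for MS in Tph2-/- (-0.16 without MS replicate 2) and Olig1 in GE2 (up to 0.03). The smallest adjusted p of a member locus for MS over genotypes was 0.0914 (DESeq2), and in Tph2-/- mice 0.143 (all 48 libraries). Counts at the study's limits moved, and rest on few loci. For MS over genotypes (3, and 6816 of all 187695 loci) the count was 0 with total counts (6072 of all). It was 1 with all 48 libraries (10861), without S18 to S26 (2374) or with the CpG slope as a term (2603). It was also 1 with Tph2-/- MS replicate 2 left out and replicate 7 returned (the exchange, 4835 of all). For MS in Tph2-/- (3, and 2769 of all) it was 1 with total counts (2418) or the slope term (1700). It was 0 with the exchange (1605) or without S18 to S26 (2221). For MS in Tph2+/- (0, and 1462 of all) it was 1 with the slope term (1714), the exchange (1613) or without S18 to S26 (1592). For Tph2-/- against Tph2+/+ (1, and 1404 of all) it was 0 with all 48 libraries (1944), the exchange (1190) or without S18 to S26 (1225). For Tph2+/- against Tph2+/+ (0, and 1025 of all) it was 1 without S18 to S26 (1385). For GE1 (2, and 1175 of all) it was 1 with total counts (2410), all 48 libraries (1029) or without S18 to S26 (1438). For GE2 (0, and 1048 of all) it was 1 with these (994, 1184 and 1604) and with DESeq2 (1318). The cause was not tested. Under total counts the median change of all loci was -0.11 for MS in Tph2+/+ and 0.15 for GE1, against 0.01 and -0.01 with TMM, and 4 pairs of genes in place of 0 were correlated.

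Replicate numbers did not pair the libraries: of 110 same-number pairs 11 had a correlation over 0.1, the lowest was -0.16, and 8 of 46 libraries correlated best with their own number. With the replicate number as a block, the count at the study's limits was 1 for MS in Tph2-/- (2694 of all loci). It was 0 for Tph2-/- against Tph2+/+ (1356 of all). For MS over genotypes 63 of all loci in place of 24 passed an adjusted p under 0.05. The sum of Opalin for MS over genotypes lay between 0.12 and 0.15 when 1 library was left out, and that of Cnp for MS in Tph2-/- between 0.26 (without MS replicate 4) and 0.43.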
